A study of Homo sapiens with 4 samples.

Results

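The aryl hydrocarbon receptor and 8 genes of its pathway were followed in 2 human gastric cancer cell lines with and without estradiol. The 9 genes were AHR, ARNT, AHRR, CYP1A1, CYP1A2, CYP1B1, TIPARP, UGT1A6 and ALDH3A1, chosen by symbol from the 58336 genes of the deposited count table. They were chosen when earlier results of these libraries were known, among them that receptor targets as a list lay lower with estradiol. Their estradiol values are therefore given as a description. The 4 libraries were AGS cells with 10 nM estradiol for 1 day, AGS control cells, HGC-27 cells with 10 nM estradiol for 1 day, and HGC-27 control cells, 1 library each. All cells were labelled wild type, and the labels do not say what the control cells received. AGS cells derive from a gastric adenocarcinoma and grow as epithelium, while HGC-27 cells derive from an undifferentiated gastric carcinoma, so each line is a single established culture.

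The aryl hydrocarbon receptor is a transcription factor that waits in the cytoplasm in a complex with HSP90 until it binds a ligand such as a dioxin, a polycyclic hydrocarbon or a tryptophan product. It then enters the nucleus, pairs with ARNT and binds DNA elements with the core GCGTG, which switches on enzymes that oxidize and conjugate the ligand. AHRR and TIPARP are themselves targets and restrain the receptor, AHRR by competing for ARNT and TIPARP by attaching ADP-ribose to it. The CYP1 enzymes also hydroxylate estradiol, which makes them a part of oestrogen breakdown.

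Total counts ran from 24597379 to 28734374 per library, and 3 counts were worth 0.104 to 0.12 CPM (counts scaled to a common library size by the TMM method). The 5 epithelial markers EPCAM, KRT8, KRT18, KRT19 and CLDN4 together had 6127 and 5778 CPM in the estradiol and control libraries of AGS, against 70.7 and 67.2 CPM in those of HGC-27. The 4 mesenchymal markers VIM, ZEB1, CDH2 and FN1 together had 5.57 and 5.002 CPM in AGS, against 1538 and 1516 CPM in HGC-27. VIM alone made up 1366 and 1356 CPM of these HGC-27 sums. CDH2 lay the other way, at few reads. Its level was 0.398 and 0.192 CPM for the AGS pair, but 0 and 0.138 CPM for the HGC-27 pair. The 3 fibroblast markers together had 10.5 and 12.2 CPM in AGS, against 1578 and 1525 CPM in HGC-27. Leukocyte and endothelial markers summed to at most 0.880 CPM in any library, with CD3E at 0 counts in all 4. These epithelial and mesenchymal marker sums move with every difference between the lines given here, and their part in it was not tested. In bulk RNA, fewer cells of a type and less RNA per cell cannot be told apart. Separate cultures are not named in the labels, and no library was repeated within a line and treatment. The p-values therefore do not measure a spread between repeated cultures. They rest on what line and treatment leave over in these libraries, pooled over genes, which may be technical.

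The receptor and its partner stood close in the lines, and most of the target genes lay further apart. AGS had more CYP1A1, UGT1A6, ALDH3A1 and AHR RNA, and HGC-27 had more AHRR, TIPARP and CYP1B1 RNA. CYP1B1 had 0 counts in both AGS libraries and was the most abundant of the 9 genes in HGC-27. Of the 8 genes that could be tested, 4 were higher and 3 lower in AGS (edgeR quasi-likelihood test over all genes, Benjamini-Hochberg adjusted p under 0.05, n = 2 libraries per line). This count carries little by itself, since 77.2% of all tested genes passed the same threshold, 35.7% higher and 41.5% lower in AGS. A difference of over 2-fold was seen for 5 of the 8, against 44.6% of all tested genes. CYP1B1 and UGT1A6 passed the filter on low counts through 1 line alone, so they could only be tested because the lines differ, and their place in these counts supports nothing. CYP1A2 did not pass the filter.

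**Figure D1:**
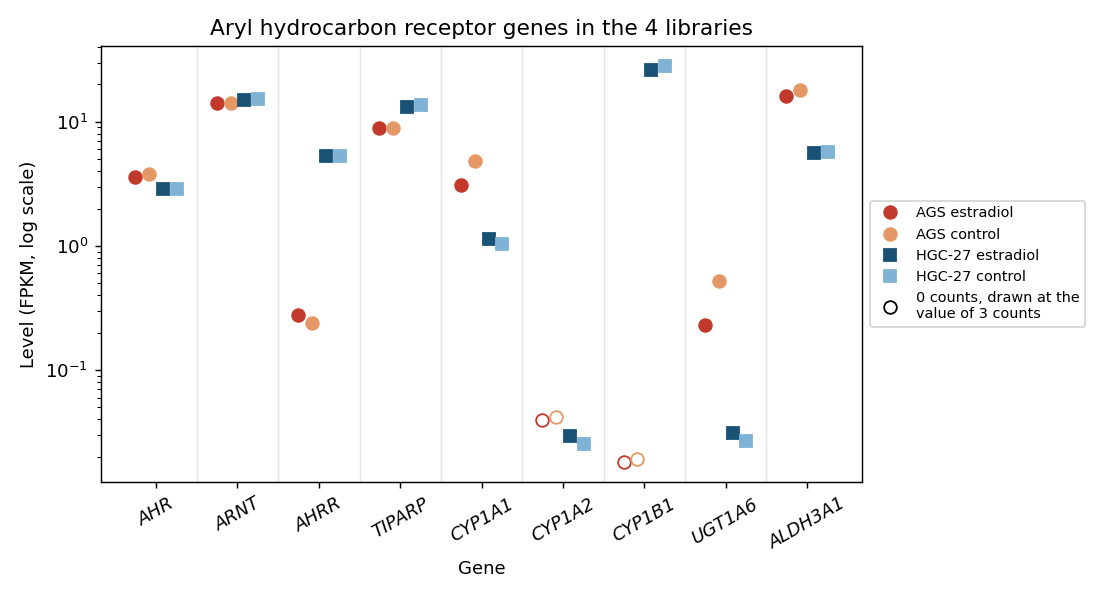
Level of each gene in each library, in FPKM (CPM per kilobase of gene length) on a log scale, with AGS as circles, HGC-27 as squares, estradiol in dark and control in light shades. CYP1B1 is at 0 counts in AGS and at 26.2 and 28.3 FPKM in HGC-27, while ARNT lies between 14.1 and 15.1 FPKM in all 4 libraries.

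AHR, the receptor itself (ENSG00000106546, chromosome 7, 16916359 to 17346152, plus strand), was read 807 and 802 times in AGS with estradiol and in AGS control, and 581 and 677 times in the matching HGC-27 libraries. These counts were 29.2 and 30.9 CPM in AGS, against 23.3 and 23.4 CPM in HGC-27, so that both AGS libraries lay above both HGC-27 libraries. The fitted log2 difference, AGS minus HGC-27, was 0.36 ± 0.09 (SE), a 1.29-fold higher level in AGS (edgeR adjusted p = 0.00023). Per length, AHR stood above 60.6% of protein-coding genes in AGS and above 57.3% in HGC-27. Of its 8081 exon bases, 2373 are shared with AC019117.2 on the same strand, a gene with 0 counts in all 4 libraries, so reads from there may be missing from its level.

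ARNT, the partner that AHR needs to bind DNA and that the hypoxia factors use too (ENSG00000143437, chromosome 1, 150809705 to 150876768, minus strand), had 92.1 and 92.9 CPM in AGS with estradiol and in AGS control, against 98.2 and 98.6 CPM in the matching HGC-27 libraries. The groups did not overlap but lay close. The log2 difference of -0.09 ± 0.06 (SE) did not pass the threshold (edgeR adjusted p = 0.171), with a 95% interval of -0.21 to 0.03, and the median over all tested genes was -0.10. ARNT had 3.91 and 3.73 times the FPKM of AHR in AGS, and 5.24 and 5.22 times in HGC-27. These ratios carry the limit on AHR reads given above.

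AHRR, the repressor that resembles AHR and takes up ARNT without activating (ENSG00000063438, chromosome 5, 304176 to 438291, plus strand), had 59 and 48 counts in the estradiol and control libraries of AGS, against 1008 and 1185 in those of HGC-27. This was 2.13 and 1.85 CPM in AGS and 40.3 and 41.0 CPM in HGC-27, with no overlap. AHRR was 20.3-fold lower in AGS, a log2 difference of -4.35 ± 0.14 (SE, edgeR adjusted p = 1.04e-106). Set against the receptor it restrains, AHRR stood at 0.0769 and 0.0630 times the FPKM of AHR in AGS, and at 1.83 and 1.84 times in HGC-27. By FPKM, AHRR RNA was therefore scarcer than AHR RNA in AGS and more abundant in HGC-27, though the level of AHR may miss reads from its shared bases. AHRR shares 244 of 7678 exon bases with PDCD6 on the same strand, which itself was read 2067 and 1970 times in AGS, against 1288 and 1677 times in HGC-27, the opposite order of the lines.

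TIPARP, the ADP-ribosyltransferase that dioxin induces (ENSG00000163659, chromosome 3, 156673235 to 156706770, plus strand), had 45.0 and 44.7 CPM in the estradiol and control libraries of AGS, against 66.2 and 68.7 CPM in those of HGC-27. It was 1.5-fold lower in AGS, with a log2 difference of -0.59 ± 0.07 (SE, edgeR adjusted p = 4.3e-15). Both restraining genes were thus lower in AGS, AHRR 20.3-fold and TIPARP 1.5-fold.

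CYP1A1, the monooxygenase most used as a readout of the receptor (ENSG00000140465, chromosome 15, 74719542 to 74725610, minus strand), had 292 and 433 counts in AGS with estradiol and in AGS control, against 97 and 103 in the matching HGC-27 libraries. In CPM these were 10.6 and 16.7 in AGS, and 3.88 and 3.56 in HGC-27. The AGS libraries lay above the HGC-27 libraries and also stood apart from each other. The log2 difference was 1.85 ± 0.18 (SE), a 3.61-fold higher level in AGS (edgeR adjusted p = 1.71e-22).

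CYP1A2, its neighbour and closest relative, which is known mainly from liver (ENSG00000140505, chromosome 15, 74748844 to 74756202, plus strand), was read 0 and 0 times in AGS, against 2 and 2 times in HGC-27. All 4 values lay at or under 3 counts, so no fold is given.

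CYP1B1, the family member that makes 4-hydroxyestradiol outside the liver (ENSG00000138061, chromosome 2, 38066973 to 38109902, minus strand), had 0 and 0 counts in the estradiol and control libraries of AGS, against 3943 and 4920 in those of HGC-27. The HGC-27 counts were 157.8 and 170.1 CPM. Against 3 counts per library in AGS, a mean of 0.112 CPM, CYP1B1 was at least 1460-fold lower in AGS. No p is given, since it passed the filter through HGC-27 alone. In HGC-27 it stood above 92.9% of protein-coding genes by FPKM. The genes of this family were therefore split between the lines: CYP1A1 was the detected one in AGS, at 3.08 and 4.85 FPKM, and CYP1B1 led in HGC-27, at 26.2 and 28.3 FPKM against 1.13 and 1.04 FPKM of CYP1A1. Of the exon bases of CYP1B1, 678 of 6014 face CYP1B1-AS1 on the other strand, which was read 2 and 1 times in AGS, against 51 and 60 times in HGC-27. No source used here says whether the counting used strand.

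UGT1A6, a transferase that couples phenols to glucuronic acid (ENSG00000167165, chromosome 2, 233691607 to 233773300, plus strand), had 33 and 70 counts in the estradiol and control libraries of AGS, against 4 and 4 in those of HGC-27. It was 12.5-fold higher in AGS, with a log2 difference of 3.64 ± 0.61 (SE), which was 2.98 without the AGS control library. As it passed the filter through AGS alone, no p is given. Genes of the UGT1A locus share their last exons, and 59.4% of the 31-base stretches of the longest UGT1A6 transcript also occur in other genes, so the count is uncertain.

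ALDH3A1, an aldehyde dehydrogenase that receptor ligands can induce (ENSG00000108602, chromosome 17, 19737984 to 19748943, minus strand), had 63.0 and 71.2 CPM in the estradiol and control libraries of AGS, against 21.8 and 22.4 CPM in those of HGC-27. It was 3.03-fold higher in AGS, with a log2 difference of 1.60 ± 0.08 (SE, edgeR adjusted p = 3.24e-61), and its groups did not overlap.

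**Figure D2:**
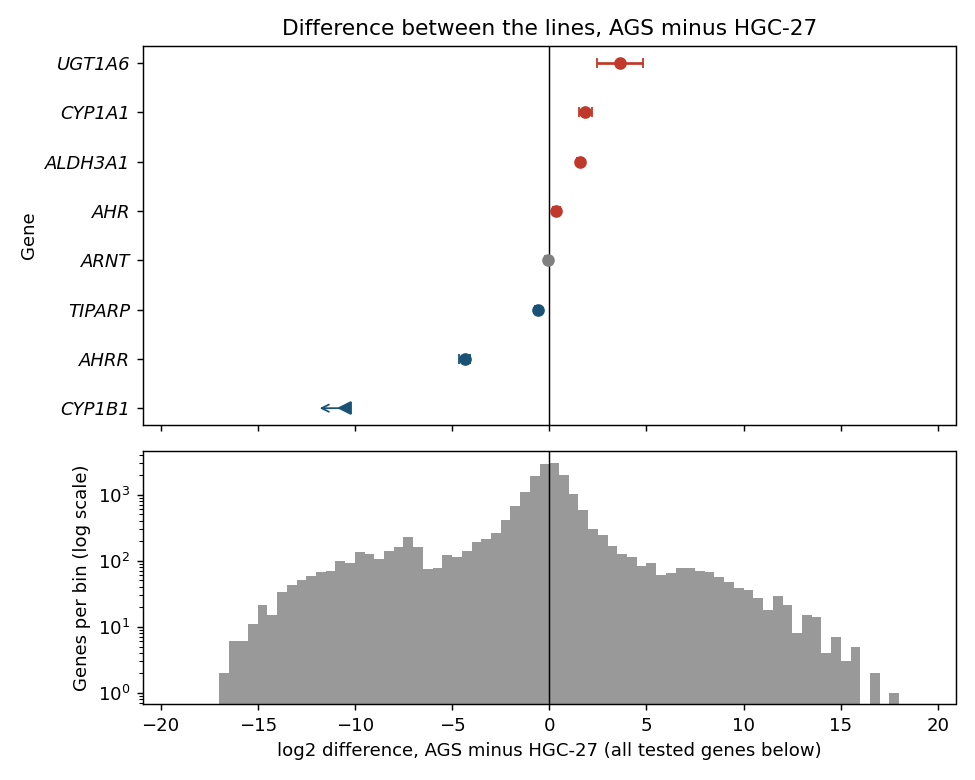
Upper panel, the log2 difference of each gene between the lines, AGS minus HGC-27, as points with 95% intervals; red is higher in AGS, blue lower, grey not past the threshold, and the arrow marks CYP1B1 as a bound. Lower panel, the same difference for all 18278 tested genes as a histogram with a log count axis, in which the values of the 8 genes lie inside the range of the other genes.

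Ranked by length-scaled level, AGS held ALDH3A1 at 17.1 ± 1.5 FPKM, ARNT at 14.2 ± 0.09, TIPARP at 8.88 ± 0.04, CYP1A1 at 3.96 ± 1.26 and AHR at 3.72 ± 0.15 (FPKM, mean ± SD, n = 2 libraries, 1 with estradiol and 1 without). UGT1A6 at 0.375 ± 0.205 FPKM and AHRR at 0.259 ± 0.027 FPKM followed. CYP1A1 and AHR were not separated beyond their spread in AGS, nor were UGT1A6 and AHRR. HGC-27 held CYP1B1 at 27.3 ± 1.5 FPKM, ARNT at 15.1 ± 0.04, TIPARP at 13.4 ± 0.4, ALDH3A1 at 5.64 ± 0.12, AHRR at 5.29 ± 0.06, AHR at 2.89 ± 0.01 and CYP1A1 at 1.08 ± 0.07. UGT1A6 and CYP1A2 came last there, at 0.0288 ± 0.0030 and 0.0273 ± 0.0028 FPKM, within each other's spread.

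The core to which the receptor and ARNT bind, GCGTG, was looked for on both strands in windows from 250 bases before to 50 bases after each start, as given by RefSeq on GRCh38.p14. Of the 9 genes 7 had an entry, with 11 starts, while CYP1B1 and ALDH3A1 had none and were not searched. Of the 11 windows 6 held the core, against 36.5% of all 35116 windows. By gene it was 5 of 7 (AHR, AHRR, CYP1A1, TIPARP and UGT1A6), against 40.6% of 27305 genes. The matches of the target genes that differed between the lines are shown with 12 bases on each side, except a further AHRR match 247 bases upstream of its second start, at the edge of the window, 5′ to 3′ on the strand that reads GCGTG, with that core in capitals.
CYP1A1, 57 bases upstream, chr15:74725569-74725597, minus strand: ccagggaaggagGCGTGgccacacgtaca
UGT1A6, 200 bases upstream of its first start, chr2:233691490-233691518, plus strand: gaacaggaactcGCGTGccagccaggtgt
AHRR, 30 bases upstream of its first start, chr5:321672-321700, plus strand: ggcgggcggctcGCGTGccggggtggggc
AHRR, 42 bases upstream of its second start, chr5:322556-322584, plus strand: gcagaagggtggGCGTGtgcgcgcgttct
TIPARP, 142 bases upstream of its first start, chr3:156674436-156674464, minus strand: ccccctgcgcgcGCGTGcgcgttcgttcg
TIPARP, 208 bases upstream of its first start, chr3:156674370-156674398, minus strand: tcccgcgaggggGCGTGtcctttctcgcg
Genes higher in AGS (CYP1A1 and UGT1A6) and genes lower in AGS (AHRR and TIPARP) both carried the core. The matches are letters in a sequence, and binding was not measured.

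The comparison of estradiol with control asked whether the hormone changed these genes. Over both lines, with the line as a block, 0 of the 8 tested genes passed an adjusted p of 0.05 in edgeR, DESeq2 or limma-voom, where 0.153% of all tested genes passed in edgeR, 0.115% higher and 0.0383% lower with estradiol. At an unadjusted p under 0.05 there was 1 in edgeR, CYP1A1, and 0 in DESeq2 and limma-voom. Of all 18278 tested genes, 593 in edgeR, 145 in DESeq2 and 490 in limma-voom did so. The fitted log2 change was below 0 for 7 of the 8, and for 9191 of all 18278 tested genes. The median was -0.08 for the 8, against -0.0007 over all tested genes. As this contrast was known when the genes were chosen, nothing is read from these counts.

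Within AGS, where 1 library stood on each side, the counting interval left out 0 for CYP1A1, UGT1A6 and ALDH3A1. CYP1A1 was at 10.6 CPM with estradiol and 16.7 CPM in control, a log2 ratio of -0.66 with a 95% counting interval of -0.88 to -0.44. UGT1A6 was at 1.19 CPM with estradiol and 2.69 CPM in control, a log2 ratio of -1.16 (-1.82 to -0.56). ALDH3A1 was at 63.0 and 71.2 CPM, a log2 ratio of -0.18 (-0.27 to -0.08). These intervals lay below 0 for 3 of the 7 genes that averaged 10 or more counts in AGS, and for 13.6% of all such genes in that line. None of the 7 lay above 0, against 12.6% of all. The genes were chosen with such results known, so nothing is read from these shares or from those in HGC-27. AHR (-0.08, -0.22 to 0.06), ARNT (-0.01, -0.09 to 0.07), TIPARP (0.01, -0.11 to 0.13) and AHRR (0.21, -0.37 to 0.79) had intervals that held 0.

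Within HGC-27 the same genes gave other values. CYP1A1 was at 3.88 CPM with estradiol and 3.56 CPM in control, a log2 ratio of 0.12 (-0.29 to 0.54), and UGT1A6 had 4 counts in each library. CYP1B1 was at 157.8 CPM with estradiol and 170.1 CPM in control, a log2 ratio of -0.11 (-0.17 to -0.05), the single interval below 0 among 7 genes that averaged 10 or more counts, where 11.2% of all such genes lay below and 10.1% above. AHR (-0.01, -0.17 to 0.15), ARNT (-0.01, -0.08 to 0.07), AHRR (-0.02, -0.15 to 0.10), TIPARP (-0.05, -0.15 to 0.04) and ALDH3A1 (-0.04, -0.21 to 0.12) had intervals that held 0. Over both lines the fitted change of CYP1A1 was -0.37 ± 0.17 and that of UGT1A6 -0.91 ± 0.56 (log2, SE). Both lay below 0 in AGS, while in HGC-27 both intervals held 0 and gave no direction (UGT1A6 0.21, -2.21 to 2.64). Whether the lines differ in the response could not be tested, since a term for it leaves no residual degree of freedom. Counting intervals leave out the spread between cultures, which these libraries do not show.

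**Figure D3:**
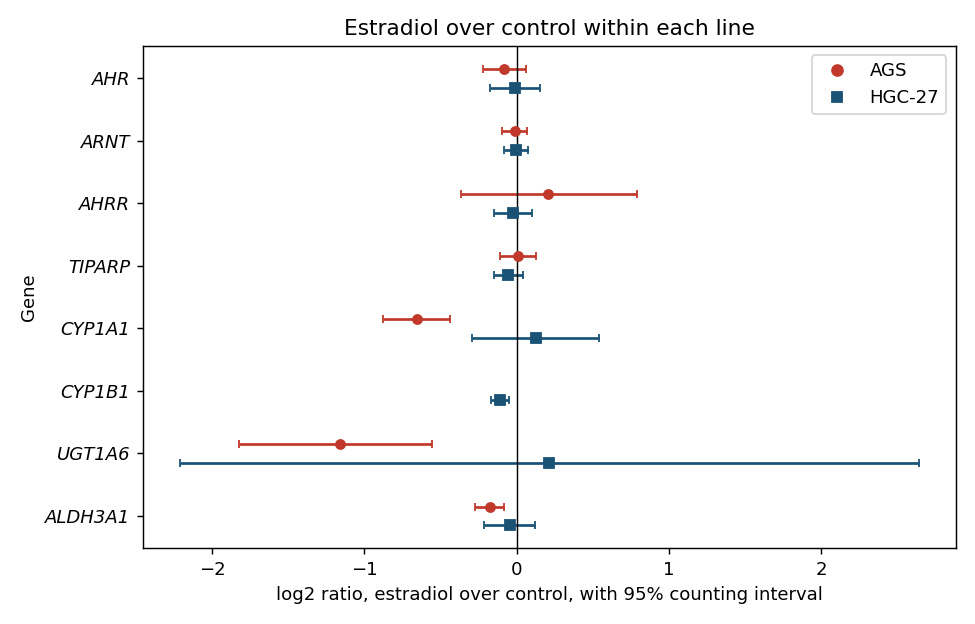
Log2 ratio of estradiol over control within AGS (red circles) and HGC-27 (blue squares), with 95% counting intervals from 1 library on each side; CYP1B1 has no AGS value and CYP1A2 is left out. CYP1A1, UGT1A6 and ALDH3A1 lie below 0 in AGS with intervals that leave out 0, and CYP1B1 does in HGC-27.

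Around the receptor, 69 further genes in 6 lists were read for context, of which 49 could be tested. Between the lines 20 were higher and 23 lower in AGS (edgeR adjusted p under 0.05), and of all 18278 tested genes 35.7% were higher and 41.5% lower. With estradiol 0 of the 49 passed in edgeR, DESeq2 or limma-voom, where 0.153% of all genes passed in edgeR. At an unadjusted p under 0.05 there were 2, 2 and 1, against 593, 145 and 490 of all 18278 tested genes. Genes with few or 0 counts in 1 line, among them FLG, SERPINB2, STC2, TDO2, QPRT, MMP1, VAV3 and ALDH3B2, could be tested only because the lines differ. The list counts that follow stand beside that background of 77.2% called in either direction, and nothing particular to a list is read from them. Of the 12 genes of the receptor complex and its coregulators, 2 were higher and 8 lower in AGS, with a median log2 difference of -0.53, against -0.10 over all tested genes. The coactivator NCOA3 was higher in AGS, at 170.0 and 174.0 CPM against 65.0 and 62.0 CPM in HGC-27 (1.44 ± 0.06, log2 difference and SE). The acetyltransferase EP300 (-1.40 ± 0.06), the coactivator NCOA2 (-1.20 ± 0.06) and MACROD1, which removes the ADP-ribose that TIPARP attaches (-1.33 ± 0.13), were lower in AGS.

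Of 8 other genes whose products pair with ARNT or its paralog, or are that paralog, 4 could be tested, 3 higher and 1 lower in AGS. The hypoxia factor EPAS1 was at 113.6 and 105.2 CPM in AGS against 2.24 and 2.04 CPM in HGC-27 (5.67 ± 0.11). HIF1A was higher in AGS by 0.87 ± 0.05 and the developmental factor SIM2 by 3.54 ± 0.11, while NPAS1, a neuronal factor, was lower by a log2 difference of -3.55 ± 0.27. ARNT2, the paralog of ARNT, was read 0 and 5 times in AGS, against 4 and 7 times in HGC-27, too few to be tested.

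Of 28 other genes reported as receptor targets, 18 could be tested, and 11 were higher and 5 lower in AGS. Their median log2 difference was 0.81, against -0.10 over all tested genes. FLG, the skin barrier protein filaggrin, was at 45.8 and 45.8 CPM in AGS and at 0 counts in HGC-27, at least 409-fold higher in AGS. The collagenase MMP1 was read 14094 and 13006 times in AGS, against 3 and 0 times in HGC-27, a ratio of 9080 with a counting interval of 3110 to 44000. SERPINB2, a plasminogen activator inhibitor, was at least 73.6-fold higher in AGS, though 24.4% of its sequence stretches recur in SERPINB10. VAV3, a signalling protein named after its values were seen, was read 4 and 4 times in AGS, against 3342 and 3855 times in HGC-27 (-9.76 ± 0.15), further apart than the bound of SERPINB2. The secreted hormone STC2 was at 0 counts in AGS, against 83.9 and 84.0 CPM in HGC-27, at least 749-fold lower in AGS. NQO1, the quinone reductase that belongs to the receptor's classical battery and is also driven by NRF2, was chosen after its values were seen. It stood at 283.3 and 322.5 CPM in AGS against 214.4 and 231.6 CPM in HGC-27 (0.44 ± 0.05). Its log2 ratio of estradiol over control was -0.19 (-0.23 to -0.14) in AGS and -0.11 (-0.16 to -0.06) in HGC-27. The fitted change of -0.15 ± 0.05 (SE) did not pass over all genes (edgeR adjusted p = 0.751). NQO1 does not stand for its list. The fitted change with estradiol was below 0 for 7 of the 18 tested genes, against 9191 of all 18278. The median of the list was 0.005, against -0.0007 over all tested genes.

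Of 12 genes that turn tryptophan into receptor ligands or carry that pathway on, 7 could be tested, 1 higher and 4 lower in AGS. IDO1 and IDO2, which open that pathway, had 0 counts in all 4 libraries. TDO2, another opening enzyme, had 0 counts in both AGS libraries, against 166 and 188 in HGC-27, at least 58.7-fold lower in AGS. QPRT, which takes the pathway toward NAD, was at 0 counts in AGS against 184.2 and 173.9 CPM in HGC-27, at least 1600-fold lower, with 33.5% of its sequence stretches found in other genes. The aminotransferases KYAT1 (-2.66 ± 0.20) and AADAT (-0.71 ± 0.08) were lower in AGS.

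Of the genes that feed electrons to the CYP1 enzymes or conjugate oestrogen products, 5 of 6 could be tested, 1 higher and 4 lower in AGS. The gene higher in AGS was POR, an electron donor named after its values were seen (0.22 ± 0.06). It stood at 81.94 and 82.46 CPM in AGS, against 71.06 and 70.35 CPM in HGC-27. CYB5A (-0.60 ± 0.11), CYB5R3 (-0.53 ± 0.06) and the sulfotransferase SULT1A1 (-1.32 ± 0.19) were lower in AGS. SULT1A1 shares 23.4% of its sequence stretches with other genes. The relatives of ALDH3A1 were split. ALDH3A2 was higher in AGS by 0.71 ± 0.06, and ALDH3B2, read 35 and 49 times in AGS, against 1 and 0 times in HGC-27, had a ratio of 84.5 (counting interval 14.8 to 3380). ALDH3B1 was lower in AGS, with a log2 difference of -2.39 ± 0.08.

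**Figure D4:**
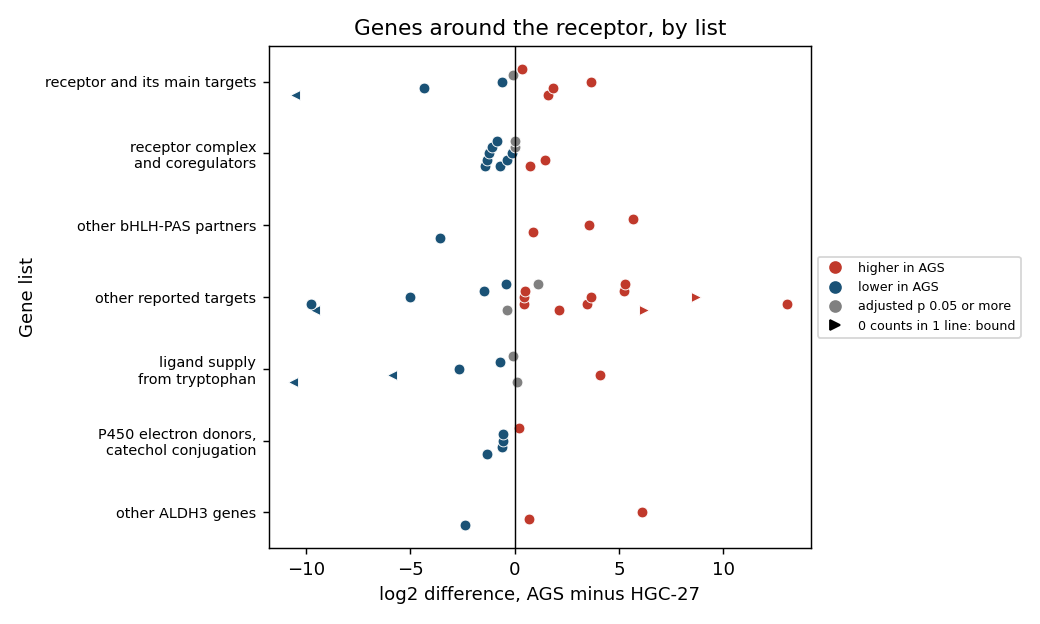
Log2 difference between the lines, AGS minus HGC-27, for the tested genes of each list, 1 point per gene with red higher in AGS, blue lower and grey not past the threshold; triangles are bounds for genes at 0 counts in 1 line. The receptor and its main targets run from at least 10.5 below 0 for CYP1B1 to 3.64 above 0 for UGT1A6, and most lists hold genes on both sides of 0.

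The genes whose pattern over the 4 libraries was most like that of AHR, among 10806 protein-coding genes with a mean of at least 5 CPM, were DDX59, RECQL5, DLD, ANKS1A and PPP1CC. Their centred log2 profiles lay 0.0138 to 0.0182 from that of AHR (Euclidean distance, 4 libraries). DDX59 had 36.8 and 38.5 CPM in the estradiol and control libraries of AGS and 29.4 and 29.4 CPM in those of HGC-27. With 4 libraries and a small difference between the lines, many genes lie near such a profile.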

How the data were processed

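TRIzol extraction and an NEB library method were used, per the labels' protocols. The authors deposited raw counts per gene, aligned with HISAT2 and counted with featureCounts per the submitters' processing notes, which also name the build hg18. The file's coordinates are not of that build: those of all 9 genes equal GENCODE release 29 on GRCh38. Gene length is the deposited column.

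Libraries were grouped by library name, whose number marks the cell line and pairs libraries (Pearson r 0.997 within each line and 0.777 to 0.781 between lines). The test was edgeR 4.0.16 in R 4.3.3, with TMM, filterByExpr (18278 genes left), a quasi-likelihood test of line plus treatment, and adjustment over all genes tested. This leaves 1 residual degree of freedom, with 396.9 prior degrees of freedom, so SEs rest on a spread pooled over genes. Each SE is the log2 change divided by the root of F. Ratios within a line used a prior of 0.5 counts and exact conditional binomial intervals of 95%, which cover counting error only. Bounds use 3 counts per library. The steps were tested on simulated data. DESeq2 1.42.0, limma 3.58.1 and other settings were alternatives.

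The members and lists were chosen with earlier results of these data known. From each list the 4 largest fitted line differences past the threshold with a mean count of at least 20 are named, and the 5 genes nearest to AHR. A gene that this rule picked is not reported here.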

Additional observations from a re-analysis of the deposited data

How the results depend on the processing

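Between the lines, 7 of the 8 tested genes passed in each fit of all 4 libraries (TMM or DESeq2 size factors, with or without the filter, DESeq2, limma-voom, a robust prior, no treatment term). In the same fits 12542 (DESeq2) to 14357 (no treatment term) genes passed, of 18278 tested, or 33755 without the filter. CYP1B1 and UGT1A6 are among the 7 and passed the filter through 1 line alone, so their part supports nothing. For the others, the adjusted p in limma-voom was 0.0107 (AHR), 3.36e-05 (AHRR), 0.00133 (CYP1A1), 0.000641 (TIPARP) and 4.88e-05 (ALDH3A1). The edgeR values given above were all smaller, so their size depends on the tool. No difference changed sign in the 11 fits run, which include those without each library in turn. AHR ranged from 0.34 to 0.41 and CYP1A1 from 1.52 to 2.17. UGT1A6 moved most of those with counts in both lines, from 2.98 without the AGS control library to 4.15. With estradiol, 0 of the 8 passed in any fit, also with no replicate block (0). Leaving out a line leaves only the ratio within the other line, already given above, with no fit and no test. These ratios ran from -0.022 to 0.21 for AHRR, -0.66 to 0.12 for CYP1A1, -0.054 to 0.0083 for TIPARP and -1.16 to 0.21 for UGT1A6. The near-zero change of AHRR (0.01) was -0.0069 in limma-voom and -0.012 with no replicate block, and the cause was not tested. Over all genes, 28 passed with estradiol, against 17 with a robust prior, 1 in DESeq2, 0 in limma-voom and 0 with no replicate block. Ratios within a line stayed inside their counting intervals with total counts or a prior of 2. Depth limits UGT1A6 in HGC-27, AHRR in AGS and CYP1A2, and 1 library on each side limits every ratio within a line.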

Other observations

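The UGT1A locus, summed, lay higher in AGS. Its 9 genes together had 67 and 124 counts in the estradiol and control libraries of AGS, against 18 and 24 in those of HGC-27. UGT1A1, the enzyme that conjugates bilirubin, was read 32 and 48 times in AGS, against 4 and 2 times in HGC-27, and its log2 ratio of estradiol over control in AGS was -0.67 with a counting interval of -1.37 to 0.0013. UGT1A7, read 2 and 4 times in AGS, against 8 and 14 times in HGC-27, lay the other way, as did UGT1A9 (0 and 0, against 2 and 2) and UGT1A5 (0 and 0, against 0 and 2) at the fewest counts. Shared exons make the split between these genes uncertain, and reads from those exons may be missing from the sum. The aldehyde dehydrogenase ALDH3A2, chosen after its values were seen, had log2 ratios of estradiol over control of -0.13 (-0.19 to -0.07) in AGS and -0.09 (-0.17 to -0.02) in HGC-27, and its fitted change of -0.11 ± 0.06 (SE) did not pass over all genes.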
